A study of Homo sapiens with 12 samples.

Results

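SRPX, OLFML3, ISM1, MATN2, FAT3, L1CAM and SHISA2 are 7 genes of cell adhesion and the extracellular matrix, described here in MDA231 (MDA-MB-231), an established cell line from a human triple-negative breast cancer. They were chosen by their log2 differences between the CPT knockdown cells and the scramble cells in these same arrays, so their knockdown values below are a description and carry no test. By annotated gene symbol they had 12 of the 54613 probe sets that were not controls, and each gene was 1 of 12887 genes with a tested value. The deposited data were 12 single-colour oligonucleotide arrays in 4 groups of 3, made from total RNA.

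The ETX group carried a scrambled short hairpin RNA and received ETX, which is not spelled out in the labels and is taken to be etomoxir, a drug that blocks carnitine palmitoyltransferase 1 (CPT1). The shCPT-1 group carried a hairpin against CPT1 and the shCPT-2 group a hairpin against CPT2, both bought in the lentiviral vector pGIPZ. The scramble group, with the scrambled hairpin alone, was the control. CPT1 and CPT2 are enzymes of the step by which long fatty acids enter mitochondria to be burned by beta-oxidation. The design sets each alteration of this step against scramble. Not given in the sources used here were the CPT1 isoform aimed at, the hairpin sequences, whether a line was a clone or a pool, and how much ETX the cells on the arrays received and for how long. The labels do not state that replicate arrays stem from separate cultures, and p-values then reflect array-to-array spread alone, possibly technical.

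As background, the 7 proteins act at or outside the cell surface or on receptors bound for it. SRPX, a sushi repeat protein, was first described in rat fibroblasts as a transcript lowered by the viral Src kinase. OLFML3 is a secreted olfactomedin domain glycoprotein, ISM1 (isthmin) a secreted protein with a thrombospondin repeat, and MATN2 (matrilin) an adaptor that links filaments of the matrix. FAT3 is a giant atypical cadherin, and L1CAM an immunoglobulin superfamily adhesion molecule known from axon growth and from invasive tumour edges. SHISA2 belongs to a family that in frog embryos holds Wnt and FGF receptors back in the endoplasmic reticulum.

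Values are log2 intensities, in which a difference of 1 is a 2-fold difference, and array medians lay between 6.23 and 6.27. Replicate arrays correlated at 0.9954 to 0.9984 within groups and at 0.9886 to 0.9955 between groups. CPT1A differed from scramble by -1.59 ± 0.08 in shCPT-1 (SE, limma, adjusted p = 1.97e-08), and CPT2 by -1.0 ± 0.1 in shCPT-2 (adjusted p = 5.46e-06). With ETX, CPT1A was 1.11 ± 0.08 higher (adjusted p = 1.46e-06) and CPT2 0.27 ± 0.10 higher (adjusted p = 0.043). CPT1A differed by -0.23 ± 0.08 in shCPT-2 (adjusted p = 0.0318), and CPT2 by 0.22 ± 0.10 in shCPT-1 (adjusted p = 0.0987). The mesenchymal markers VIM, CD44, MSN, CAV1 and AXL lay at 12.38 to 14.56 on all 12 arrays. Of 7 luminal and hormone receptor markers listed as low in this line, 4 (GATA3, EPCAM, ESR1 and ERBB3) were above the array medians on all 12 arrays and 2 (CDH1 and PGR) under them on all 12. Of 4 leukocyte markers, CD3E was above the medians on all 12 arrays, and PTPRC and CD14 under them. Of 4 endothelial markers, PECAM1 was above on all 12 arrays, and CDH5 and VWF under. Of 5 fibroblast markers, COL1A1 was above on all 12 arrays, and LUM and COL1A2 under. The summed linear intensity of the endothelial markers was 323 to 385 in ETX, 261 to 293 in shCPT-1 and 256 to 278 in shCPT-2, against 327 to 355 in scramble. That of the luminal markers was 1316 to 1357 in ETX, 1136 to 1182 in shCPT-1 and 1316 to 1399 in shCPT-2, against 1328 to 1418 in scramble. Leukocyte markers summed to 211 to 241 in ETX, 238 to 253 in shCPT-1 and 218 to 232 in shCPT-2, against 233 to 242 in scramble. Fibroblast markers summed to 445 to 472 in ETX, 499 to 517 in shCPT-1 and 456 to 470 in shCPT-2, against 506 to 538 in scramble. The part of these markers in the results was not tested. In RNA from a whole culture, fewer cells that express a gene and less RNA per cell cannot be told apart.

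The 250 bases upstream of the annotated start are shown for SRPX, OLFML3 and SHISA2, which were all lower in both knockdowns, and for L1CAM, which was higher in both. The sequences are from RefSeq. They are read 5′ to 3′ on the gene's strand in build GRCh38.p14, and capitals mark matches to 6 searched motifs on either strand.
SRPX: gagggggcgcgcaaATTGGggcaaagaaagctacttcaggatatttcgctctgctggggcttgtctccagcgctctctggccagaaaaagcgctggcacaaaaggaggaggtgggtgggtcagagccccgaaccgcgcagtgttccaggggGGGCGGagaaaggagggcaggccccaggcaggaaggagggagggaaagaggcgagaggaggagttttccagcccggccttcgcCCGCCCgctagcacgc
OLFML3: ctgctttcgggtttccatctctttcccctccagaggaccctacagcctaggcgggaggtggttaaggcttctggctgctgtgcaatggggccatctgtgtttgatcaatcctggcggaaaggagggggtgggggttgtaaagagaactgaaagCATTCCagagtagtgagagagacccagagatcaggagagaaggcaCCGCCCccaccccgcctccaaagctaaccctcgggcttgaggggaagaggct
SHISA2: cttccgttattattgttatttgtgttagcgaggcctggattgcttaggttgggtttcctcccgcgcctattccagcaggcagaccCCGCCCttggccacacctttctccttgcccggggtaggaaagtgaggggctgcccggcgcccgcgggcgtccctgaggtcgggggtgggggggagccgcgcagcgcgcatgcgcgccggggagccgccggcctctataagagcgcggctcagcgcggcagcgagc
L1CAM: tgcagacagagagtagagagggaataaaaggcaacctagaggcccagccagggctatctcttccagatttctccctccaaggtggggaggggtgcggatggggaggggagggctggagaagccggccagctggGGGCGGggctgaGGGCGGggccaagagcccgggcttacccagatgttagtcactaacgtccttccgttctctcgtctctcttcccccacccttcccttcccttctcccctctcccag
The windows lie at chrX:38220872-38221121 on the minus strand for SRPX, at chr1:113979224-113979473 on the plus strand for OLFML3, at chr13:26052017-26052266 on the minus strand for SHISA2 and at chrX:153875945-153876194 on the minus strand for L1CAM, the last being 1 of 2 starts in the table. For L1CAM the start with the lower coordinate was taken, which on the minus strand is the downstream one, and the upstream window is not shown. FAT3, ISM1 and MATN2 are named only.

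The motifs were searched in both orientations, each given with the share of 35116 RefSeq windows of the same length that hold it. TATAAA, the core of the TATA box, was in 10.7%, the CCAAT box in 32%, and GGGCGG, the GC box, in 42.6%. The AP-1 site TGANTCA was in 6.57%, the E-box CACGTG in 6.34% and the TEAD site GGAATG in 11.9%. A GC box was in all 4 windows, with 2 matches in SRPX and 2 in L1CAM. SRPX also held a CCAAT box, 236 to 232 bases before the start, and OLFML3 a TEAD site, 97 to 92 bases before it. GC content was 64% for SRPX, 57.6% for OLFML3, 67.6% for SHISA2 and 62.4% for L1CAM, with a median of 58% over all windows. These matches describe letters only.

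In SRPX, OLFML3, SHISA2 and MATN2 the arrays of both knockdowns stood apart from those of ETX and scramble, which overlapped each other. FAT3 and L1CAM had a different value in each of the 4 groups, and ISM1 was low in all 3 altered groups. In shCPT-1 against scramble, 4 genes were at least 2-fold lower and 2 at least 2-fold higher, where 0.66% and 0.574% of the 12887 tested genes were. In shCPT-2 against scramble, 5 were at least 2-fold lower and 1 at least 2-fold higher, where 1.2% and 0.776% of tested genes were. The arrays of all 7 genes were apart from scramble in each knockdown, as were those of 51.1% of tested genes in shCPT-1 and 52.4% in shCPT-2. Since the knockdown values chose the genes, nothing is read from these shares.

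SRPX had the largest differences from scramble of the 7 genes in both knockdowns. Its log2 intensities (probe set 204955_at) were 10.04, 10.05 and 10.08 with ETX. They were 6.39, 6.69 and 6.43 in shCPT-1 and 7.48, 7.29 and 7.31 in shCPT-2, against 10.06, 10.09 and 10.10 in scramble. The order from high to low was scramble, ETX, shCPT-2, shCPT-1, in which scramble and ETX overlapped and the other neighbours did not. SRPX differed from scramble by -3.58 ± 0.07 (SE, n = 3 arrays a group) in shCPT-1, which is 11.9-fold lower and the 3rd largest fall of the 12887 genes. In shCPT-2 it differed by -2.72 ± 0.07, which is 6.6-fold lower and the 4th largest fall. Between the knockdowns it was 0.86 ± 0.07 higher in shCPT-2 than in shCPT-1. The shCPT-1 arrays lay close to the array medians, where a fold is less certain.

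OLFML3 followed the same order with smaller differences. Its probe set, 218162_at, read 9.62, 9.57 and 9.71 with ETX. It read 6.90, 6.83 and 7.22 in shCPT-1 and 8.08, 8.09 and 7.99 in shCPT-2, against 9.65, 9.72 and 9.81 in scramble. The ETX and scramble arrays overlapped, and each knockdown stood apart from the other. OLFML3 differed from scramble by -2.74 ± 0.09 in shCPT-1 (6.69-fold lower) and by -1.67 ± 0.09 in shCPT-2 (3.19-fold lower), and it was 1.07 ± 0.09 higher in shCPT-2 than in shCPT-1. These were the 8th and 39th largest falls.

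SHISA2 was low in both knockdowns, whose arrays overlapped. Its probe set, 230493_at, read 11.62, 11.69 and 11.58 with ETX, 9.45, 9.57 and 9.51 in shCPT-1 and 9.47, 9.17 and 9.29 in shCPT-2, against 11.65, 11.61 and 11.59 in scramble. ETX overlapped scramble, and shCPT-1 overlapped shCPT-2. It differed from scramble by -2.10 ± 0.07 in shCPT-1 (4.3-fold lower) and by -2.31 ± 0.07 in shCPT-2 (4.94-fold lower), which were the 14th and 10th largest falls. MATN2, the matrix adaptor, showed the same grouping turned upward. Its main probe set, 202350_s_at, read 7.12, 7.10 and 6.93 with ETX, 8.86, 8.82 and 8.98 in shCPT-1 and 9.14, 8.95 and 9.13 in shCPT-2, against 7.01, 7.17 and 6.96 in scramble. The ETX arrays overlapped those of scramble. MATN2 was 1.84 ± 0.08 higher in shCPT-1 (3.59-fold, the 6th largest rise) and 2.03 ± 0.08 higher in shCPT-2 (4.08-fold, the 11th largest rise), with overlapping knockdown arrays.

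**Figure D1:**
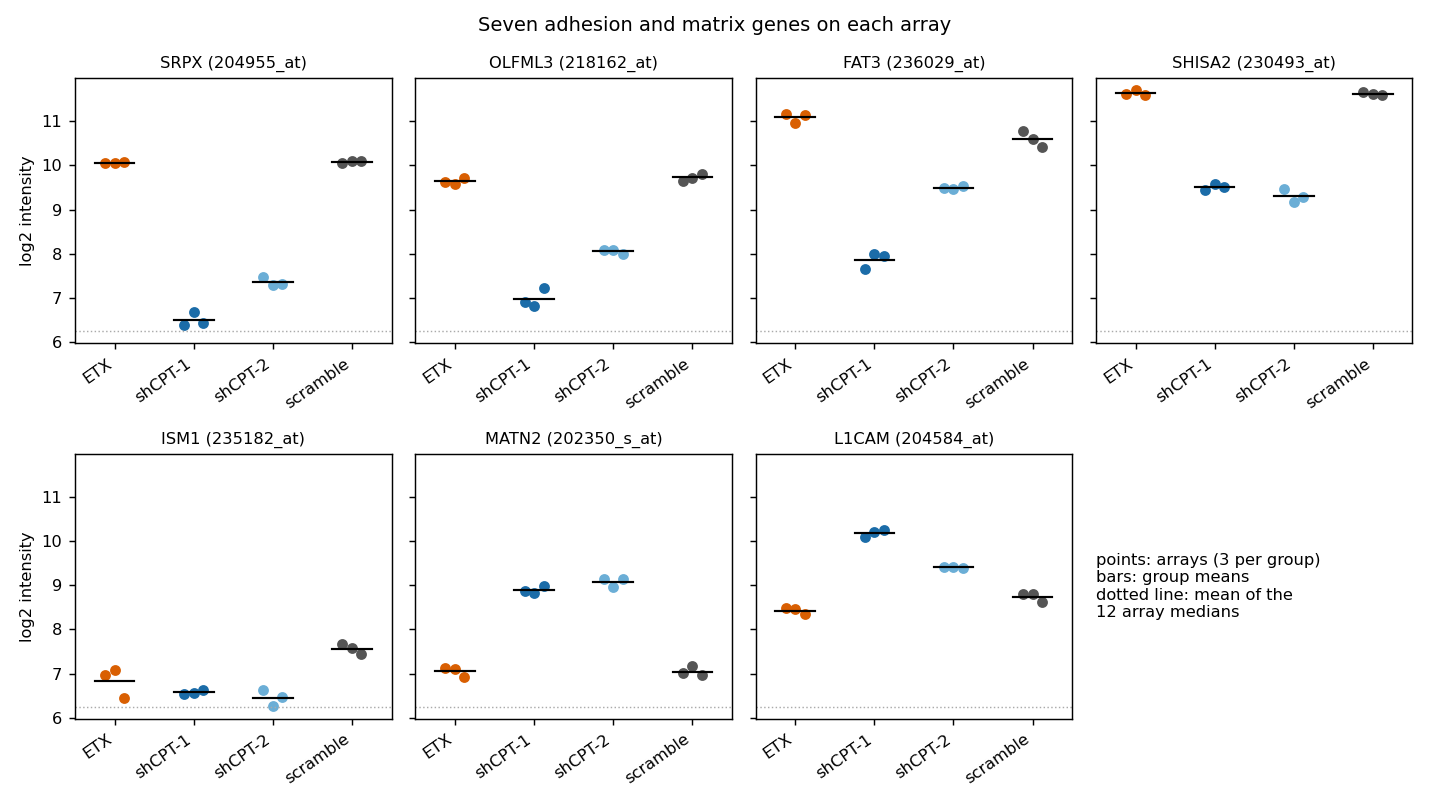
The y axis gives the log2 intensity of the main probe set of each of the 7 genes on each of the 12 arrays, with groups ETX, shCPT-1, shCPT-2 and scramble along the x axis; points are arrays, bars are group means and the dotted line is the mean of the array medians. SRPX lay at 6.39 to 6.69 in shCPT-1 while its ETX and scramble arrays lay between 10.04 and 10.10, and MATN2 and L1CAM were higher in the knockdowns.

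FAT3, the cadherin, was read by 3 probe sets, of which 1 lay under the array medians on all 12 arrays. The main probe set, 236029_at, read 11.16, 10.96 and 11.14 with ETX. It read 7.65, 7.99 and 7.95 in shCPT-1 and 9.48, 9.46 and 9.54 in shCPT-2, against 10.77, 10.59 and 10.41 in scramble. No 2 groups overlapped, and the order was ETX, scramble, shCPT-2, shCPT-1. FAT3 differed from scramble by -2.73 ± 0.10 in shCPT-1 (6.62-fold lower, the 9th largest fall) and by -1.10 ± 0.10 in shCPT-2 (2.14-fold lower, the 124th largest), and it was 1.63 ± 0.10 higher in shCPT-2 than in shCPT-1. The second probe set, 1558964_at, read 10.33, 10.48 and 10.55 with ETX, 7.52, 7.72 and 7.75 in shCPT-1 and 9.28, 9.14 and 9.23 in shCPT-2, against 9.91, 9.74 and 9.81 in scramble. It gave the same order of groups, with a difference from scramble of -2.16 ± 0.08 in shCPT-1 and -0.60 ± 0.08 in shCPT-2.

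L1CAM ran in the opposite order to FAT3. Its main probe set, 204584_at, read 8.48, 8.46 and 8.34 with ETX. It read 10.08, 10.21 and 10.25 in shCPT-1 and 9.42, 9.41 and 9.39 in shCPT-2, against 8.79, 8.79 and 8.63 in scramble. The ETX arrays lay under every scramble array, the knockdown arrays lay above, and no 2 groups overlapped. It was 1.44 ± 0.06 higher in shCPT-1 (2.72-fold, the 16th largest rise) and 0.67 ± 0.06 higher in shCPT-2 (1.59-fold), and shCPT-2 differed from shCPT-1 by -0.78 ± 0.06. The other kept probe set, 204585_s_at, lay near the array medians and did not show the shCPT-2 value. It read 6.62, 6.53 and 6.33 with ETX, 6.77, 6.88 and 6.90 in shCPT-1 and 6.75, 6.68 and 6.72 in shCPT-2, against 6.70, 6.68 and 6.73 in scramble. There the difference from scramble was 0.15 ± 0.07 in shCPT-1 and 0.01 ± 0.07 in shCPT-2, and shCPT-2 overlapped scramble there.

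**Figure D2:**
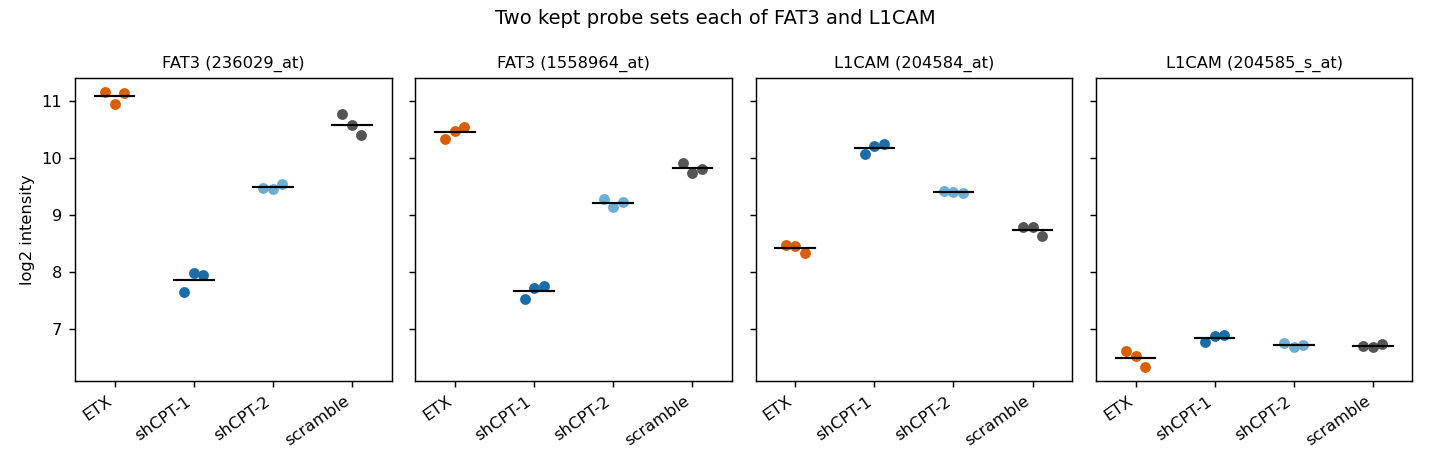
The y axis gives the log2 intensity of the 2 kept probe sets each of FAT3 and of L1CAM on the 12 arrays, by group along the x axis; points are arrays and bars are group means. The FAT3 probe sets share the order of groups, while the second L1CAM probe set spans only 6.33 to 6.90.

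ISM1 was the one gene that was low in every altered group. Its main probe set, 235182_at, read 6.98, 7.09 and 6.44 with ETX. It read 6.54, 6.56 and 6.64 in shCPT-1 and 6.64, 6.26 and 6.48 in shCPT-2, against 7.66, 7.58 and 7.44 in scramble. All 3 altered groups lay under scramble and overlapped their neighbours, and several of their arrays lay close to the array medians. ISM1 differed from scramble by -0.98 ± 0.14 in shCPT-1 (1.97-fold lower) and by -1.10 ± 0.14 in shCPT-2 (2.14-fold lower). The further probe sets of ISM1, MATN2 and FAT3 that lay under the medians on all 12 arrays had group means of 4.58 to 4.69, 5.53 to 5.63 and 3.67 to 3.74.

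Of the comparisons against scramble, the choice of the genes used the ETX comparison least, and all of them share the scramble arrays. The genes were chosen with earlier results of these data known, so the ETX p-values are not independent of that choice. Among the 7 genes, 3 passed the test (limma, adjusted p under 0.05 over 12887 genes), 1 higher and 2 lower. Over all tested genes 41.3% passed, 21.9% higher and 19.4% lower, so this share is close to the background. The largest of the 7 ETX changes was under 2-fold, where 0.435% of tested genes were at least 2-fold higher and 0.0233% at least 2-fold lower. FAT3 rose by 0.50 ± 0.10 with ETX (1.41-fold, adjusted p = 0.00244), and its second probe set by 0.64 ± 0.08 (1.55-fold, adjusted p = 0.000122 over probe sets). ISM1 fell by 0.72 ± 0.14 (1.65-fold, adjusted p = 0.00188), the 33rd largest fall with ETX. L1CAM fell by 0.31 ± 0.06 (1.24-fold, adjusted p = 0.00181), and its second probe set by 0.21 ± 0.07 (1.16-fold, adjusted p = 0.031).

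Each of these 3 genes had ETX arrays that did not overlap scramble, as 49.5% of tested genes did. The other 4 genes did not pass, with 95% intervals of -0.18 to 0.13 for SRPX, -0.28 to 0.10 for OLFML3, -0.13 to 0.16 for SHISA2 and -0.16 to 0.17 for MATN2. Their changes with ETX were -0.02, -0.09, 0.01 and 0.01, with adjusted p = 0.815, 0.437, 0.897 and 0.938. The signal difference between the 3′ and 5′ ends of the actin control, a sign of RNA quality, was 1.75 ± 0.06 in ETX, 1.73 ± 0.23 in shCPT-1 and 1.68 ± 0.23 in shCPT-2, against 2.07 ± 0.27 in scramble (SD, n = 3). With it as a covariate the ETX changes were 0.63 for FAT3, -0.71 for ISM1 and -0.23 for L1CAM, and all 3 calls held.

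**Figure D3:**
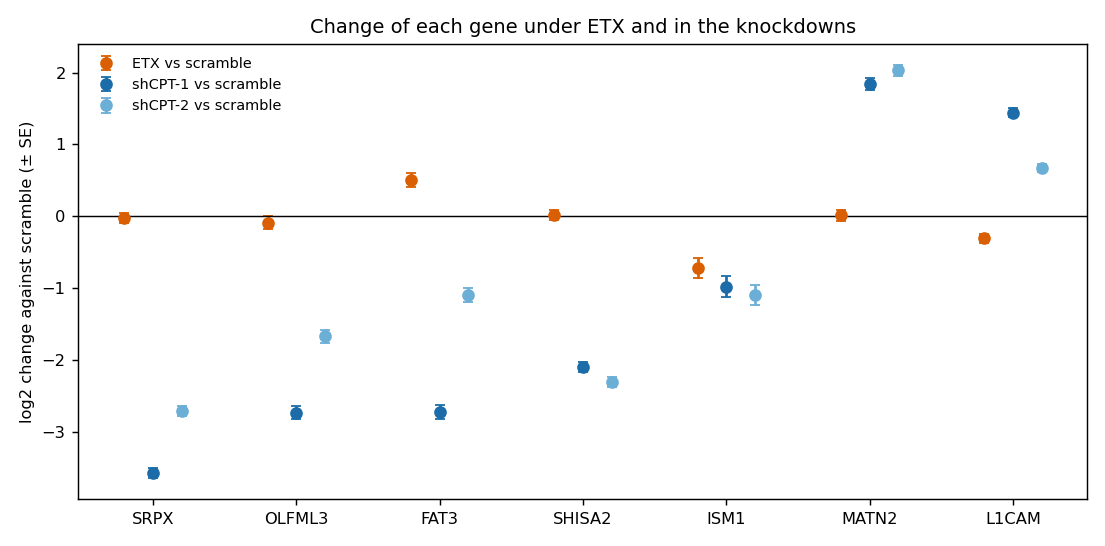
The y axis gives the log2 change against scramble, with its standard error, of each of the 7 genes along the x axis, in ETX, shCPT-1 and shCPT-2. FAT3 is above 0 with ETX and below 0 in both knockdowns, and L1CAM is the reverse; the knockdown values chose the genes.

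Between the knockdowns, the arrays of 4 genes did not overlap (SRPX, OLFML3, FAT3 and L1CAM), as was so for 48.6% of tested genes. OLFML3 and FAT3 were at least 2-fold higher in shCPT-2 than in shCPT-1, where 0.256% of tested genes were and 0.683% were at least 2-fold lower. In each of these 4 the difference from scramble was larger in shCPT-1 than in shCPT-2. SHISA2, ISM1 and MATN2 overlapped, at -0.20 ± 0.07, -0.12 ± 0.14 and 0.19 ± 0.08. Over the 7 genes the median change was -0.02 with ETX, -2.10 in shCPT-1 and -1.10 in shCPT-2, where the medians over all tested genes were -0.01, 0.01 and 0.

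The genes with the most similar changes were found by the mean absolute distance over the 3 changes against scramble, thus over 4 group means that share the scramble arrays. The nearest to SRPX were FAM133A (distance 0.30), TENM2 (0.38), a teneurin of the cell surface, and COL4A5 (0.38), a basement membrane collagen. The nearest to OLFML3 were FABP5 (0.20), a fatty acid binding protein, SVIP (0.28) and WNT5A (0.35), a Wnt ligand. FAT3 was nearest to AMPH (0.26), WNT5A (0.34) and FABP5 (0.50), and SHISA2 to KYNU (0.18), an enzyme of tryptophan breakdown, SVIP (0.19) and GZMA (0.24).

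ISM1 was nearest to PLPP3 (0.11), CDK2AP2 (0.13) and NRGN (0.14), and MATN2 to NUP210 (0.09), SFTA3 (0.13) and AFAP1-AS1 (0.18). L1CAM was nearest to EEF1A2 (0.11), CORO2A (0.18) and MELTF (0.19). Among the 7 genes themselves OLFML3 lay closest to FAT3 (0.39) and to SHISA2 (0.46), and MATN2 lay closest to L1CAM (0.69).

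Relatives and partners of the 7 genes were read from 8 lists of 115 genes, of which 77 had a tested value. Among these 77, 16 were higher and 10 lower with ETX, 16 higher and 19 lower in shCPT-1, and 19 higher and 17 lower in shCPT-2. As shares these are 20.8% and 13% with ETX, 20.8% and 24.7% in shCPT-1, and 24.7% and 22.1% in shCPT-2. Over all tested genes 41.1% were called in shCPT-1, 23.1% higher and 18% lower, and 46.1% in shCPT-2, 25.6% higher and 20.5% lower, so the shares are near the background. Between shCPT-2 and shCPT-1, 16 of the 77 were higher and 22 lower (20.8% and 28.6%), where 35.5% of tested genes were called, 17.7% higher and 17.8% lower. The list medians were 0.01 with ETX, 0 in shCPT-1 and -0.05 in shCPT-2, all close to the medians over all genes. With ETX 21.9% of tested genes were called higher and 19.4% lower. The counts by list that follow stand against these all-gene shares, and nothing is read from so few genes a list.

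Of 9 tested sushi repeat relatives of SRPX, 3 were higher with ETX and the other 6 not called. In shCPT-1, 2 were higher and 2 lower, and in shCPT-2, 5 were higher and 4 not called. SRPX2, the closest paralog, rose by 0.53 ± 0.09 with ETX (adjusted p = 0.000548) and fell by 0.38 ± 0.09 in shCPT-1 (adjusted p = 0.00346). In shCPT-2 it rose by 0.27 ± 0.09 (adjusted p = 0.0214). That last call was lost without scramble array 3 (0.18, adjusted p = 0.083), without shCPT-2 array 3 (0.26, adjusted p = 0.0597) and without the 4 arrays that correlated least with their groups (0.18, adjusted p = 0.0672). SUSD3 rose by 0.83 ± 0.09 in shCPT-1 and by 0.36 ± 0.09 in shCPT-2 (adjusted p = 1.43e-05 and 0.00516). SUSD1 rose by 0.62 ± 0.11 and 0.45 ± 0.11 (adjusted p = 0.000543 and 0.00378), its shCPT-2 call being lost with the actin covariate (0.28, adjusted p = 0.0702). SUSD5 fell by 0.69 ± 0.07 in shCPT-1 (adjusted p = 1.28e-05), and read -0.08 ± 0.07 in shCPT-2.

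Of the 7 tested matrilins and matrix partners of MATN2, 2 were lower with ETX, 2 lower in shCPT-1 and 4 lower in shCPT-2, with the rest not called. FBN1, fibrillin, fell by 0.54 ± 0.06 in shCPT-1 and by 0.28 ± 0.06 in shCPT-2 (adjusted p = 1.19e-05 and 0.00147). LAMB1, a laminin chain, fell by 0.51 ± 0.05 and 0.30 ± 0.05 (adjusted p = 8.15e-06 and 0.000408). FN1, fibronectin, fell by 0.47 ± 0.04 in shCPT-2 (adjusted p = 3.58e-06) and read 0.02 ± 0.04 in shCPT-1. LAMC1 fell by 0.12 ± 0.04 with ETX and by 0.14 ± 0.04 in shCPT-2 (adjusted p = 0.032 and 0.0126). The ETX call of LAMC1 was lost without scramble array 1, 2 or 3 or ETX array 1 or 2 (-0.13 to -0.10, adjusted p = 0.0544 to 0.112), and with the mean of its probe sets it read -0.02 (adjusted p = 0.676). It was also lost with the actin covariate (-0.10, adjusted p = 0.126). No filter on low signals, a filter at the 25th percentile and each array centred on its median lost it too (-0.12 to -0.10, adjusted p = 0.054 to 0.0758). So did fitting only the groups compared and a block for the replicate number (-0.12 for both, adjusted p = 0.0771 and 0.0552). The shCPT-2 call of LAMC1 was lost with the mean of its probe sets (-0.11, adjusted p = 0.0561) and with the actin covariate (-0.11, adjusted p = 0.0849). The partners called in the knockdowns were lower, where MATN2 was higher. Over all tested genes 18% were called lower in shCPT-1 and 20.5% in shCPT-2, and nothing is read from counts among 7 genes.

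Of 7 tested olfactomedin relatives of OLFML3, 4 were higher in shCPT-1 and 2 in shCPT-2, where OLFML3 was lower, with the others not called. Over all tested genes 23.1% were called higher in shCPT-1 and 25.6% in shCPT-2, and nothing is read from counts among 7 genes. With ETX, 2 of the 7 were higher and 2 lower. OLFML2A rose by 0.82 ± 0.11 in shCPT-1 (adjusted p = 9.87e-05) and OLFML2B by 0.61 ± 0.09 (adjusted p = 0.000155). With ETX they fell by 0.32 ± 0.11 and by 0.44 ± 0.09 (adjusted p = 0.04 and 0.0023). The OLFML2A call with ETX was lost without scramble array 1 or 2, ETX array 2 or 3 or shCPT-1 array 2 (-0.32 to -0.23, adjusted p = 0.0524 to 0.158), and with the actin covariate (-0.33, adjusted p = 0.0952). OLFML2B rose by 0.26 ± 0.09 in shCPT-2 (adjusted p = 0.0279), lost without scramble array 1 or shCPT-2 array 2 or 3 (0.17 to 0.28, adjusted p = 0.0553 to 0.124). That OLFML2B call was also lost with the actin covariate (0.22, adjusted p = 0.154) and without the 4 least correlated arrays (0.25, adjusted p = 0.0819), and held at 0.17 with array weights (adjusted p = 0.0439). The latrophilin receptor ADGRL1 rose by 0.64 ± 0.05 in shCPT-1 and by 0.44 ± 0.05 in shCPT-2 (adjusted p = 8.96e-07 and 1.29e-05), and ADGRL2 by 0.47 ± 0.10 in shCPT-1 (adjusted p = 0.00216). With ETX ADGRL2 rose by 0.52 ± 0.10 (adjusted p = 0.0013) and ADGRL1 by 0.15 ± 0.05 (adjusted p = 0.0246). The ADGRL1 call was lost without scramble array 1 or 2 or ETX array 1 (0.13 to 0.15, adjusted p = 0.0696 to 0.0945). It was also lost with the mean of its probe sets (0.09, adjusted p = 0.176), with no filter on low signals (0.15, adjusted p = 0.0517) and with the actin covariate (0.15, adjusted p = 0.0676).

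Of the cadherins near FAT3, FAT4 moved as FAT3 did in all 3 comparisons. It read 8.77, 8.72 and 8.67 with ETX, 7.50, 7.45 and 7.56 in shCPT-1 and 7.82, 7.76 and 7.99 in shCPT-2, against 8.38, 8.51 and 8.34 in scramble. Its groups did not overlap. FAT4 rose by 0.31 ± 0.07 with ETX (adjusted p = 0.00294), and fell by 0.91 ± 0.07 in shCPT-1 (adjusted p = 5.83e-07) and by 0.55 ± 0.07 in shCPT-2 (adjusted p = 2.38e-05). FAT1 fell by 0.30 ± 0.04 in shCPT-1 (adjusted p = 0.000135) and read 0.05 ± 0.04 in shCPT-2. FJX1, a kinase that modifies FAT and dachsous cadherins, rose by 0.37 ± 0.05 in shCPT-2 (adjusted p = 5.53e-05).

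Of 12 tested immunoglobulin superfamily adhesion genes, 3 were higher and 1 lower with ETX, 1 higher and 2 lower in shCPT-1, and 3 higher and 1 lower in shCPT-2. BCAM, the Lutheran antigen, moved as L1CAM did. It fell by 0.26 ± 0.05 with ETX (adjusted p = 0.00134) and rose by 0.49 ± 0.05 in shCPT-1 (adjusted p = 6.13e-06). Its rise of 0.15 ± 0.05 in shCPT-2 (adjusted p = 0.0214) was lost without scramble array 3 or shCPT-2 array 2 or 3 (0.12 to 0.15, adjusted p = 0.0522 to 0.0741), and without the 4 least correlated arrays (0.09, adjusted p = 0.12). With only the groups compared and with a trended, robust variance prior it stayed at 0.15 but was not called (adjusted p = 0.0615 and 0.0511). ICAM1 fell by 0.66 ± 0.07 in shCPT-1 and by 0.68 ± 0.07 in shCPT-2 (adjusted p = 8e-06 and 4.76e-06), and ALCAM rose by 0.38 ± 0.04 in shCPT-2 (adjusted p = 1.29e-05). CNTN1 rose by 0.79 ± 0.10 with ETX (adjusted p = 0.000115), with knockdown changes of -0.05 and -0.04. ALCAM also rose by 0.13 ± 0.04 with ETX (adjusted p = 0.0266), lost without scramble array 1 or 2 or ETX array 2 or 3 (0.11 to 0.14, adjusted p = 0.0546 to 0.097), and with the actin covariate (0.09, adjusted p = 0.131). With no filter and with only the groups compared ALCAM stayed at 0.13 but was not called (adjusted p = 0.062 and 0.0771).

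Of 14 tested partners, linkers and sheddases of L1CAM, 2 were higher and 2 lower with ETX, 4 higher and 3 lower in shCPT-1, and 3 higher and 5 lower in shCPT-2. ITGA5, an integrin subunit that L1CAM can bind, rose by 0.56 ± 0.05 in shCPT-1 and by 0.28 ± 0.05 in shCPT-2 (adjusted p = 4.66e-06 and 0.00079). ADAM10, a protease that sheds L1CAM, rose by 0.37 ± 0.04 and by 0.18 ± 0.04 (adjusted p = 1.66e-05 and 0.00333). With the mean of its probe sets the ADAM10 change in shCPT-2 was 0.39 (adjusted p = 0.00181). SHTN1, shootin, which couples L1CAM to actin flow, rose by 0.25 ± 0.05 and by 0.46 ± 0.05 (adjusted p = 0.000855 and 5.46e-06). ANK2, an ankyrin, rose by 0.72 ± 0.07 with ETX (adjusted p = 2.02e-05), with knockdown changes of 0 and -0.08.

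Of 17 tested genes of the Shisa family and the Wnt and FGF receptors that it acts on, 2 were higher and 3 lower with ETX, 3 higher and 6 lower in shCPT-1, and 5 higher and 5 lower in shCPT-2. LRP5, a Wnt co-receptor, fell by 1.11 ± 0.12 in shCPT-2 (2.15-fold, adjusted p = 8.45e-06). Its fall of 0.36 ± 0.12 in shCPT-1 (adjusted p = 0.0251) was lost without scramble array 1 or 2 or shCPT-1 array 1 (-0.33 to -0.26, adjusted p = 0.077 to 0.112), and LRP5 was -0.20 with the actin covariate (adjusted p = 0.22). FZD4 fell by 0.56 ± 0.06 in shCPT-1 and by 0.43 ± 0.06 in shCPT-2 (adjusted p = 2.07e-05 and 0.000146). FZD6 rose in all 3 comparisons, by 0.26 ± 0.04 with ETX, 0.32 ± 0.04 in shCPT-1 and 0.34 ± 0.04 in shCPT-2. FZD2 fell by 0.43 ± 0.08 with ETX and by 0.35 ± 0.08 in shCPT-1 (adjusted p = 0.00116 and 0.00349), the fall in shCPT-1 being -0.20 with the actin covariate (adjusted p = 0.0192).

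Of 8 tested thrombospondin repeat genes and isthmin receptors, 3 were higher with ETX, 2 higher and 2 lower in shCPT-1, and 1 lower in shCPT-2, with the others not called. THBS1 rose by 0.60 ± 0.09 with ETX (adjusted p = 0.000337) and fell by 0.35 ± 0.09 in shCPT-1 (adjusted p = 0.00733). Without cross-hybridising probe sets THBS1 changed by 0.23 with ETX and by -0.58 in shCPT-1 (adjusted p = 0.0238 and 5.49e-05). THBS2 fell by 0.71 ± 0.06 in shCPT-2 and by 0.31 ± 0.06 in shCPT-1 (adjusted p = 2.06e-06 and 0.00198). ITGB5, a subunit of an integrin that ISM1 binds, rose by 0.43 ± 0.07 with ETX and by 0.41 ± 0.07 in shCPT-1 (adjusted p = 0.000857 and 0.000839). Without cross-hybridising probe sets ITGB5 changed by 0.27 and 0.72 (adjusted p = 0.0263 and 3.21e-05), and with the actin covariate by 0.27 in shCPT-1 (adjusted p = 0.00225). HSPA5, a chaperone that is also a cell-surface receptor of ISM1, rose by 0.48 ± 0.05 with ETX and by 0.39 ± 0.05 in shCPT-1 (adjusted p = 1.63e-05 and 3.12e-05). In shCPT-2 THBS1 read 0.02 ± 0.09, ITGB5 -0.18 ± 0.07 and HSPA5 0.08 ± 0.05, none of them called (adjusted p = 0.881, 0.0617 and 0.195). ITGB5 thus differed by -0.59 ± 0.07 between shCPT-2 and shCPT-1 (adjusted p = 6.5e-05).

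**Figure D4:**
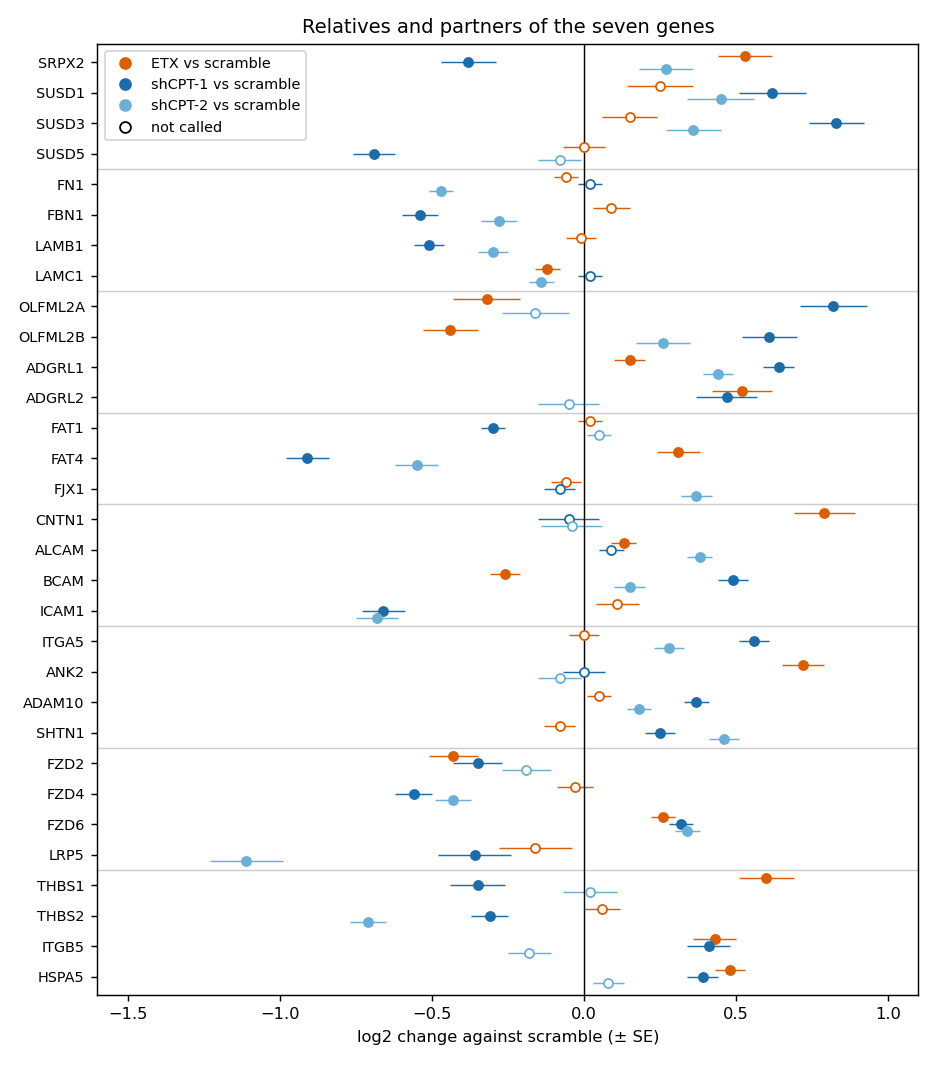
The x axis gives the log2 change against scramble, with its standard error, of named relatives and partners of the 7 genes down the y axis, in ETX, shCPT-1 and shCPT-2; filled points passed the limma test and open points did not. FAT4 lies above 0 with ETX and below 0 in both knockdowns, as FAT3 did.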

How the data were processed

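Total RNA of MDA231 cells was measured on 12 single-colour arrays, 3 in each of the groups ETX, shCPT-1, shCPT-2 and scramble, assigned from the labels' sample names. The deposited values are 1 linear intensity per probe set and array, made with RMA per the submitters' processing notes. Not given in the sources used here are its version, its settings and a build. There were 54675 probe sets, 62 of them controls; of the others, 41091 had 1 gene symbol, 1801 several and 11721 none. The deposited intensities were put on a log2 scale. Probe sets above their array's median on at least 3 arrays were kept (28630, 23565 with 1 symbol), and the kept probe set with the highest mean stood for its gene, giving 12887 genes.

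Each comparison was a contrast in 1 limma model (version 3.58.1, lmFit and eBayes) of all 12 arrays without covariates, with 8 residual and 4.12 prior degrees of freedom. The software was R 4.3.3, its data.table package being version 1.17.8. Tests were two-sided, with Benjamini-Hochberg adjustment over all genes at 0.05. The second probe sets of FAT3 and L1CAM were tested in a fit over all 23565 probe sets. For relatives called in opposite directions, the knockdowns were also set against ETX in the same fit, a comparison added after the data were seen. With 3 arrays a side the smallest exact permutation p is 0.1, and no such test was run. The number of arrays and the signal over background limit the precision, and some values also moved with the choice of probe set and with the actin covariate. Figures were drawn with Python 3.11.15 and matplotlib 3.10.9.

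The 7 genes, the lists and the alternatives were chosen with earlier results of these data known. All 7 genes were named with every probe set, up to 4 genes per list with the smallest p over the comparisons against scramble, and the 3 nearest tested genes of each of the 7. Alternatives were the filter, the choice of probe set, the normalization, eBayes settings, a fold threshold, array weights, leaving out each array, fitting only the compared groups and a block for the replicate number; the actin covariate and leaving out 4 arrays were added after the data were seen. The fit was tested on simulated data for the ETX comparison (12887 genes): 99 of 100 genes changed by 0.5 and 100 of 100 changed by 1 were recovered, with 9 calls among 12687 unchanged genes. The noise was drawn independently for each array at the spread of the fit itself, and few genes were changed. These counts check the code only and do not carry over to the data, where 41.3% of genes were called with ETX. The array titles share numbers between groups, and a check of the arrays' deviations from their group means did not pair them over the 4 groups together.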

Additional observations from a re-analysis of the deposited data

Results flagged for a closer look

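FAT3 and L1CAM moved in opposite directions with ETX and with the knockdowns, in every array. FAT3 was 0.50 higher with ETX, and -2.73 from scramble in shCPT-1 and -1.10 in shCPT-2 on the log2 scale. L1CAM was -0.31 from scramble with ETX, and 1.44 higher in shCPT-1 and 0.67 higher in shCPT-2. These differences between ETX and the knockdowns were not tested, since the knockdown values chose the genes, and all 3 comparisons share the scramble arrays. The second FAT3 probe set had the same directions, while the second L1CAM probe set overlapped scramble in shCPT-2.

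Of the 77 relatives tested, 10 had calls in opposite directions. NRCAM, FZD5, FGFR1 and FGFR3 were 4 of these, named here after their values were seen. The share of all tested genes with such calls was not counted, so nothing is read from this count. The calls of OLFML2A with ETX, and of SRPX2, OLFML2B and BCAM in shCPT-2, were lost under some alternatives. For the other 6 of the 10 relatives, the difference between the groups was itself tested (limma, adjusted over all 12887 genes). Opposite calls in the same fit picked these 6, so a difference was largely fixed in advance. Its size is given by the log2 difference with its SE, and the p-values that follow add no support. FAT4 was lower than with ETX by 1.22 in shCPT-1 (a difference of -1.22 ± 0.07, adjusted p = 3.19e-08) and by 0.86 in shCPT-2 (-0.86 ± 0.07, adjusted p = 5.04e-07). BCAM was 0.75 ± 0.05 higher in shCPT-1 than with ETX (adjusted p = 1.2e-07) and 0.41 ± 0.05 higher in shCPT-2 (adjusted p = 2.1e-05). OLFML2B was 1.05 ± 0.09 higher in shCPT-1 than with ETX (adjusted p = 1.4e-06) and 0.70 ± 0.09 higher in shCPT-2 (adjusted p = 3.94e-05). OLFML2A was 1.14 ± 0.11 higher in shCPT-1 than with ETX (adjusted p = 5.39e-06). THBS1 differed by -0.95 ± 0.09 between shCPT-1 and ETX (adjusted p = 3.59e-06). SRPX2 differed by -0.91 ± 0.09 between shCPT-1 and ETX (adjusted p = 3.47e-06), and was 0.65 ± 0.09 higher in shCPT-2 than in shCPT-1 (adjusted p = 9.25e-05).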

How the results depend on the processing

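Of the 7 genes, the ETX calls of FAT3, ISM1 and L1CAM held under all alternatives run, at 0.38 to 0.64, -0.85 to -0.52 and -0.36 to -0.21. The uncalled ETX changes near 0 turned sign: SHISA2 was -0.03 with quantile normalization again, 0 without scramble array 3 and -0.02 without ETX array 2 (-0.02 to 0.04 over all arrays left out in turn). MATN2 was -0.04 with array weights, and -0.01, -0.04, -0.03 and -0.02 without scramble array 1 or 3 or ETX array 1 or 2 (up to 0.07 without scramble array 2). SRPX was 0.02 with the actin covariate. LAMC1 turned to 0.05 between the knockdowns with the mean of its probe sets. That mean gave -2.44 and -0.85 for FAT3 and 0.79 and 0.34 for L1CAM in shCPT-1 and shCPT-2. MATN2 gave no value without cross-hybridising probe sets.

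Counts of genes called moved by more than 1.5 times in these settings, given as higher and lower. A 2-fold threshold left 56 and 3 with ETX, 74 and 85 in shCPT-1, 100 and 154 in shCPT-2, and 33 and 88 between the knockdowns, against 2821 and 2498, 2979 and 2323, 3295 and 2642, and 2287 and 2288. Each of 23565 probe sets on its own gave 5098 and 3905, 5044 and 3782, 5759 and 4494, and 3674 and 3772. These count probe sets out of 23565, not genes out of 12887, and a larger set alone gives larger counts. Array weights gave 3994 lower with ETX, 3554 in shCPT-1, 4093 in shCPT-2, and 3739 and 3730 between the knockdowns. Without cross-hybridising probe sets 9855 genes were tested rather than 12887, 57 of them list genes rather than 77. With ETX, 1658 were lower without those probe sets, out of the smaller set, and 1665 with the actin covariate. List genes lower with ETX, 10 in the fit of the report, were 5 without cross-hybridising probe sets, 6 with only the groups compared, 16 with array weights and 5 with the actin covariate. Leaving out 1 array gave 4 (without scramble array 1) to 10, with 5 without scramble array 2 and 6 without ETX array 2. Where no value shows the cause of such a change, the cause was not tested.

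Arrays with the same title number correlated at -0.457 to 0.327 in their deviations, and arrays of other numbers at -0.453 to 0.612. Only 3 of 12 arrays matched best with their own number. Between ETX and scramble alone, arrays of the same number correlated at 0.091, 0.282 and 0.327, and those of other numbers at -0.369 to 0.239. A pairing of these 2 groups is therefore not excluded. With the number as a replicate block, 2732 and 2343 genes were called with ETX, 2858 and 2205 in shCPT-1, 3196 and 2552 in shCPT-2, and 2183 and 2194 between the knockdowns. For arrays, signal over background limits the low values, as for ISM1 and for SRPX in shCPT-1.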
